A study of Homo sapiens with 2 samples.

Results

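The genes described here build the early secretory pathway: protein entry into the endoplasmic reticulum (ER), the COPII and COPI vesicle coats, cargo receptors and Golgi matrix proteins. They were chosen by gene symbol (SRP, SEC, SSR, COP, ARF, TMED, SAR1 and GOLGA families, with LMAN1, LMAN2 and KTN1), among probe sets annotated with exactly 1 gene symbol. The symbols were set with earlier results of these data known. The symbols gave 60 genes and 106 probe sets, of 11963 genes in all. Each gene is represented by its probe set with the highest mean log2 signal.

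RNA was compared between 2 lines, the K-ras H6c7 line and the parental H6c7 line, with 1 U133A array each. H6c7 cells derive from the epithelium of a human pancreatic duct and were immortalised with papillomavirus genes, which both lines therefore carry. A K-ras oncogene was introduced into the first, and the labels do not say whether it is a pool or a clone, name the promoter of the transgene, or name a vector control. The comparison asks which transcripts differ in cells that carry the oncogene. With 1 array per line no spread between samples was available, so no difference could be tested, and precision is limited by the number of arrays. A difference in a bulk sample cannot tell fewer cells with a transcript apart from less transcript per cell.

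As background, proteins bound for secretion or membranes are caught at the ribosome by the signal recognition particle, delivered to its receptor on the ER and threaded through the SEC61 channel. Folded cargo leaves the ER in COPII vesicles, whose coat is set up by the GTPase SAR1. The COPI coat, recruited by ARF GTPases, carries escaped ER proteins back and moves material within the Golgi. Golgins are long coiled-coil proteins that tether vesicles to Golgi membranes. Duct cells are secretory and depend on this route.

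Signals are linear intensities. The floor was the higher of both array medians, a signal of 46.9, and genes under it in both lines are called not measured. For genes under it in a single line the ratio is only a bound, written as "at least". Genes were counted from a 2-fold ratio of K-ras over parental signal, a log2 ratio of 1. The array medians were 46.9 in the K-ras line and 43.9 in the parental line, and 11109 and 10791 probe sets reached the floor. The ratio of 3' to 5' probe sets, a sign of RNA integrity, was 1.10 in the K-ras line and 1.28 in the parental line for ACTB, and 0.888 and 0.817 for GAPDH. The duct keratins KRT7 and KRT18 were high in both lines, with KRT7 at 2466 in the K-ras line and 3075 in the parental line. Of 9 measured duct markers none was at least 2-fold higher and 4 (44.4%) were lower, where 14.4% of all measured genes were: KRT19 (2.74-fold), EPCAM (2.08-fold), SOX9 (2.05-fold, but a log2 ratio of 0.04 in another probe set) and CA2 (at least 5.69-fold). CFTR was below the floor in both lines. Of 5 islet markers on the array none was measured. The acinar list had 2 of 6 measured, the leukocyte and endothelial list 2 of 7, none of them past 2-fold, and the fibroblast list 5 of 8, also none past 2-fold. The part of such differences in the values below was not tested.

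Of the 60 secretory pathway genes, 56 were measured and 50 were above the floor on both arrays. In the K-ras line 16 of 56 (28.6%) were at least 2-fold lower, where 14.4% of all 7693 measured genes were. Only 4 of 56 (7.14%) were at least 2-fold higher, where 9.97% of all measured genes were. The larger share of lower genes has no test behind it. The median log2 ratio of the 50 genes was -0.03, beside 0.10 over all 5996 genes above the floor on both arrays, and 25 of the 50 lay on each side of 0. The lower genes included 4 of 5 measured subunits of the signal recognition particle and 4 of 10 translocon genes. The 4 translocon calls all rest on _s_at probe sets, which can match several transcripts of a gene, and none is left without the _x_at and _s_at types, where 3 signal recognition particle genes still counted as lower. With the lowest instead of the highest measured probe set of a gene, 2 translocon genes were lower. The balance of all genes depends on scaling: 767 were higher and 1109 lower here, against 1093 and 844 when the arrays were scaled on 100 maintenance probe sets, where the secretory genes still split into 4 higher and 15 lower.

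**Figure D1:**
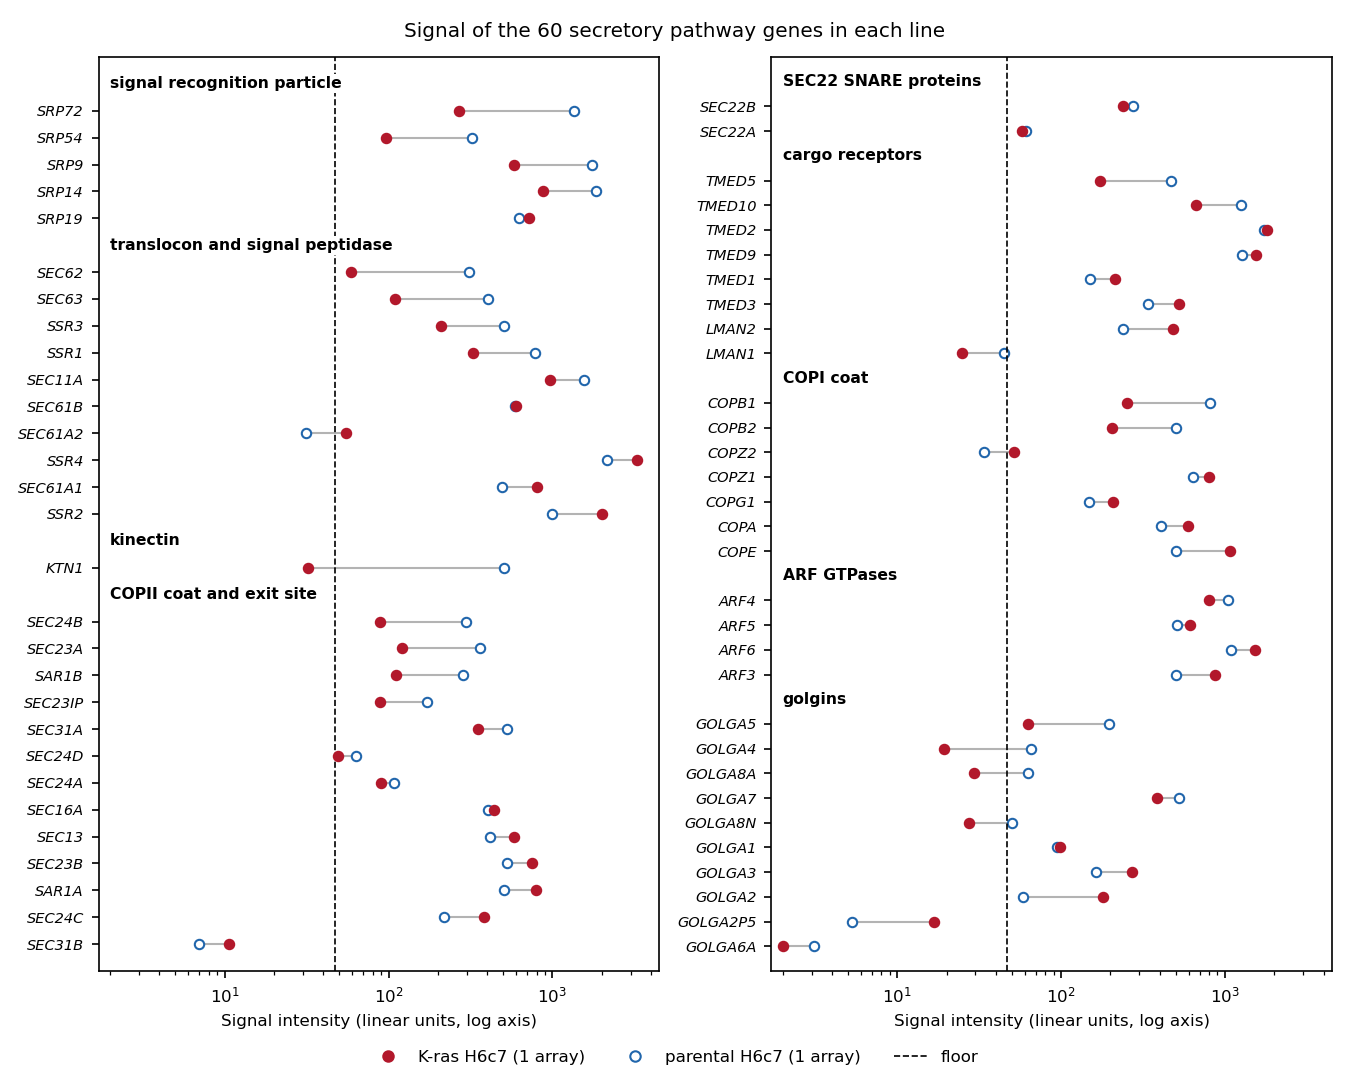
Signal intensity on a log axis of each of the 60 genes in the K-ras line (filled points) and the parental line (open points), 1 array each, grouped by role, with the floor of 46.9 as a dashed line. The filled points of SRP72, SEC62, SEC63 and COPB1 lie far left of the open ones, those of SSR2, COPE and GOLGA2 to the right, and LMAN1, SEC31B, GOLGA2P5 and GOLGA6A lie below the floor in both lines.

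The signal recognition particle, which pauses translation and brings the ribosome to the ER, was the role group with the largest share of lower genes among those of 5 or more measured genes. SRP72, part of the heterodimer that holds the particle's RNA, reached 271 in the K-ras line and 1355 in the parental line, a 5.002-fold lower level. It has 5 informative probe sets, and all 5 were lower. The other 3 above the floor on both arrays gave log2 ratios of -2.35, -2.18 and -1.62, and the fifth a bound of -2.33.

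SRP54, the GTPase that recognises the signal sequence, had 96.8 in the K-ras line and 323 in the parental line (3.34-fold lower). SRP9 and SRP14 together form the Alu domain dimer that slows elongation. SRP9 had 583 in the K-ras line and 1754 in the parental line (3.01-fold lower). SRP14 had 875 in the K-ras line and 1835 in the parental line (2.10-fold lower), which fell under 2-fold after scaling on maintenance probe sets. SRP19, which assembles the particle by binding its RNA, did not share the difference, with 724 in the K-ras line and 623 in the parental line. The log2 ratios of the 5 subunits thus ranged from -2.32 to 0.22.

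At the translocon 4 accessory genes were lower, while the channel genes and other accessory genes were not. SEC61A1, the channel's main subunit, had 803 in the K-ras line and 496 in the parental line (log2 ratio 0.70), and the small subunit SEC61B 603 and 588 (0.04). SEC62 and SEC63, membrane proteins that help substrates engage the channel, were both lower. SEC62 had 58.8 in the K-ras line, just above the floor, and 309 in the parental line (5.26-fold lower). SEC63 had 110.2 in the K-ras line and 406 in the parental line (3.69-fold lower), but its second probe set was only at -0.67. A second SEC62 probe set was under the floor with K-ras alone, at a bound of -1.48. SEC61A2, a lesser isoform of the channel, was above the floor in the K-ras line only (54.8), at a bound of 0.22.

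The translocon-associated protein complex, whose 4 subunits SSR1 to SSR4 sit beside the channel, split into pairs. SSR1 had 327 in the K-ras line and 787 in the parental line (2.41-fold lower), and 3 further probe sets gave -1.52, -1.27 and -0.99. SSR3 had 209 in the K-ras line and 510 in the parental line (2.44-fold lower). In contrast SSR2 had 2019 in the K-ras line and 994 in the parental line (2.03-fold higher), and SSR4 had 3276 and 2145 (log2 ratio 0.61). The log2 ratios differed by -2.29 (SSR1 minus SSR2) and by -1.90 (SSR3 minus SSR4). The pooled SD between probe sets of 1 gene, the only repeat measurement in the data, was 0.46 on the log2 scale, and 0.50 among the secretory genes. It is technical and holds no spread between cultures or arrays. It also applies to a single ratio, so it cannot judge these differences between 2 genes. SSR2 is close to the threshold and fell under it with quantile normalization, median centring, a loess curve, a pseudocount, or removal of a trend with gene span. SEC11A, a catalytic subunit of signal peptidase, was under 2-fold in both probe sets (log2 ratios -0.68 and -0.53).

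KTN1 encodes kinectin, a coiled-coil ER membrane protein that anchors kinesin. Its signal was 32.1 with K-ras, below the floor, and 509 in the parental line, which makes it at least 10.9-fold lower. All its probe sets are of the _x_at or _s_at type, and the one used is an _x_at probe set, which can pick up related transcripts, so the value is uncertain. Its remaining probe sets gave bounds of -2.82 and -1.26, so all 3 point the same way.

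**Figure D2:**
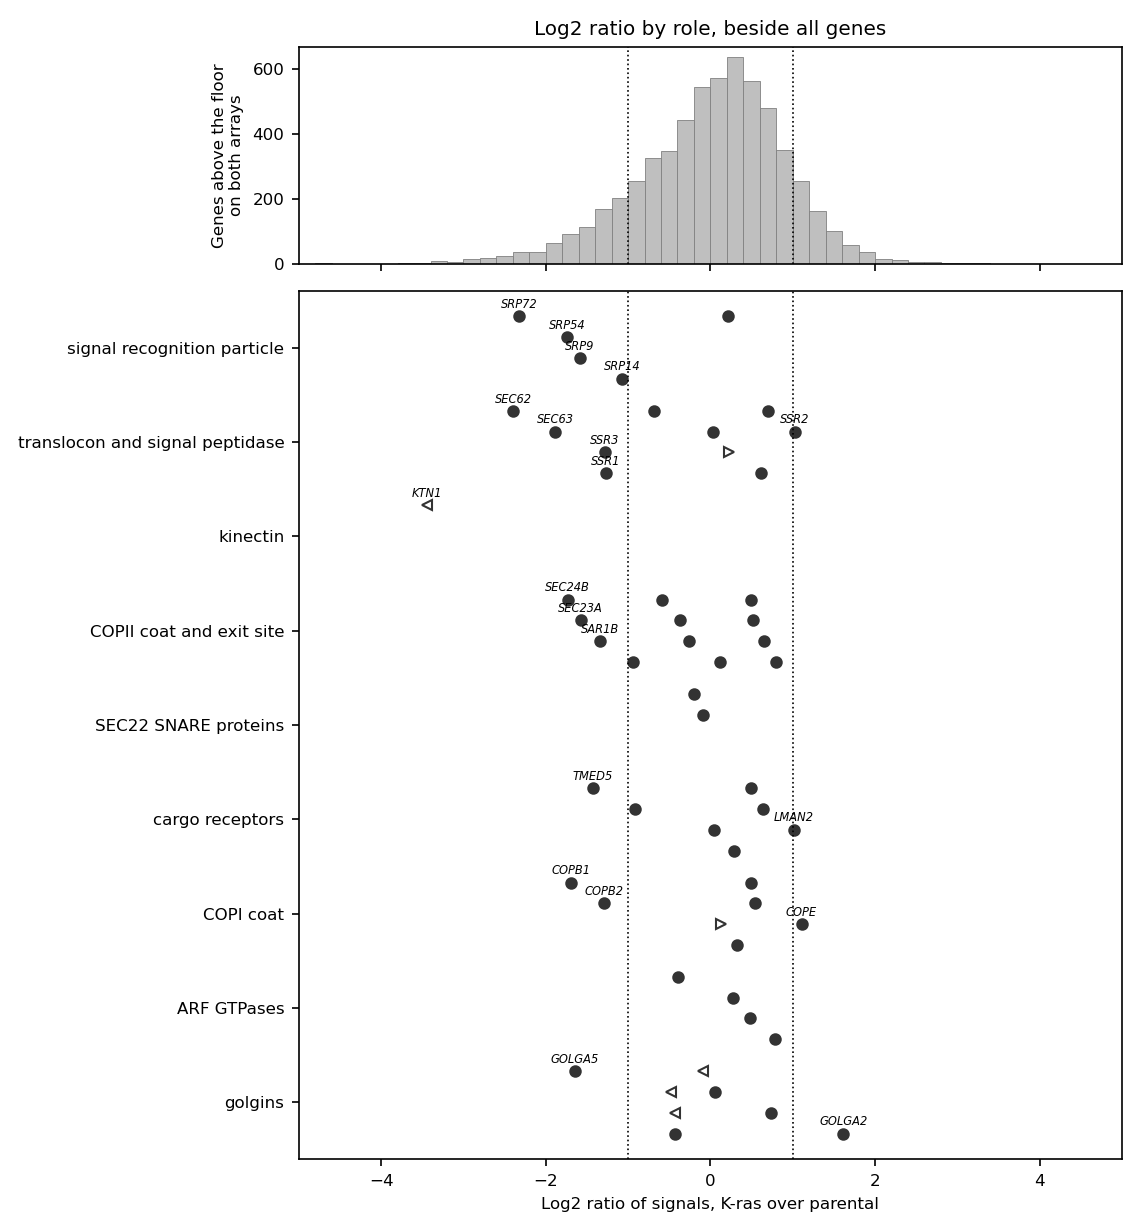
Top, histogram of log2 ratios (K-ras over parental) of the 5996 genes measured in both lines; bottom, the log2 ratio of each measured secretory pathway gene by role, with open triangles for bounds and dotted lines at 2-fold. Genes at least 2-fold different are named; 16 lie left of the lower line and 4 right of the upper one, and 4 of the 5 signal recognition particle genes are among the 16.

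In the COPII coat, 3 of 12 measured genes (25%) were lower and none was higher, beside 14.4% lower and 9.97% higher among all measured genes. With so few genes these counts say little about the coat. The median log2 ratio was -0.32. Each of the 3 has a paralogue with a ratio nearer to or above 0. SEC23A, an inner coat subunit and activator of the SAR1 GTPase, had 120.7 in the K-ras line and 360.4 in the parental line (2.99-fold lower), with -1.28 in a second probe set. Its paralogue SEC23B had 752 in the K-ras line and 527 in the parental line, and its 3 probe sets gave 0.51, 0.32 and 0.13. The log2 ratios of the paralogues thus differed by -2.09 (SEC23A minus SEC23B), and no probe set of one overlapped with those of the other.

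SEC24 proteins select cargo in the inner coat. SEC24B had 89.2 in the K-ras line and 297 in the parental line (3.33-fold lower). SEC24C had 380.2 in the K-ras line and 219 in the parental line, a log2 ratio of 0.80, the highest in the coat. SEC24A and SEC24D lay between them at -0.26 and -0.37, but a second SEC24A probe set gave -1.52, and SEC24D at 48.9 in the K-ras line and 63.3 in the parental line was close to the floor.

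SAR1B, one of 2 SAR1 GTPases, had 111 in the K-ras line and 283 in the parental line (2.54-fold lower). For SAR1A the probe sets disagreed. The one with the highest signal had 798 in the K-ras line and 506 in the parental line, a log2 ratio of 0.66. The other 2 gave -0.03 and -1.38, the widest disagreement among the 19 secretory genes with at least 2 probe sets measured in both lines (2.04 log2 units). Without _x_at and _s_at probe sets SAR1A counts as lower, so its direction rests on the choice of probe set.

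The outer coat and the exit site differed less. SEC13 had a log2 ratio of 0.49 and SEC31A, its partner in the outer cage, -0.59, with 0.10 in a second probe set. SEC16A, the scaffold of exit sites, was at 0.12. SEC23IP, a phospholipase-like partner of SEC23, was just inside 2-fold at -0.94 with another probe set at -1.98. SEC31B was not measured. The SNARE protein SEC22B, which helps vesicles fuse, and its relative SEC22A had log2 ratios of -0.20 and -0.09.

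Among cargo receptors, 7 of 8 were measured. TMED5, of the p24 family that cycles between ER and Golgi, had 173 in the K-ras line and 466 in the parental line (2.70-fold lower), but its second probe set gave only -0.38. TMED10 was at -0.91 with 0.06 in a second probe set. The other p24 genes TMED2, TMED9, TMED1 and TMED3 had log2 ratios of 0.05, 0.28, 0.49 and 0.64. LMAN2, a lectin that carries glycoproteins, had 478.5 in the K-ras line and 237 in the parental line (2.02-fold higher), and fell under 2-fold with median centring or a pseudocount. LMAN1, the receptor for coagulation factors, had 25.0 in the K-ras line and 44.6 in the parental line, both below the floor.

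In the COPI coat 2 of 7 measured genes (28.6%) were lower and 1 (14.3%) higher, beside 14.4% and 9.97% of all measured genes. With so few genes these counts say little about the coat. COPB1, the beta subunit, had 252 in the K-ras line and 814 in the parental line (3.22-fold lower), and -2.003 in a second probe set. COPB2, the beta prime subunit, had 205 in the K-ras line and 499.5 in the parental line (2.44-fold lower). COPE, the epsilon subunit, which binds the alpha subunit in the outer coat, had 1077 in the K-ras line and 500.0 in the parental line (2.15-fold higher). Between them lay COPA (log2 ratio 0.54), COPG1 (0.49) and COPZ1 (0.33), the alpha, gamma and zeta subunits. COPZ2 was above the floor in the K-ras line only, at 51.4. ARCN1, the delta subunit, which the choice by symbol leaves out and which was looked up after the values were seen, had 351 in the K-ras line and 578 in the parental line (-0.72). The log2 ratios of COPB1 and COPE differed by -2.80 (COPB1 minus COPE). They are the lowest and the highest of the 7, so a wide gap follows from the choice.

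None of the 4 ARF GTPases passed 2-fold. ARF4, ARF5, ARF6 and ARF3 had log2 ratios of -0.39, 0.28, 0.48 and 0.79, and the ARF6 value comes from an uncertain _x_at probe set, with 0.18 and -0.07 in its others.

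Of 8 measured golgins 1 (12.5%) was higher and 1 (12.5%) lower, beside 9.97% and 14.4% of all measured genes. GOLGA2 encodes GM130, a cis-Golgi matrix protein that holds the vesicle tether p115. It had 179.9 in the K-ras line and 58.8 in the parental line (3.06-fold higher), and its 2 other probe sets were above the floor in the K-ras line only, at bounds of 1.06 and 0.88. GOLGA5, the membrane-anchored golgin-84, had 62.6 in the K-ras line and 196.5 in the parental line (3.14-fold lower). Under a floor at the 70th percentile neither GOLGA2 nor GOLGA5 counted. GOLGA3, GOLGA1 and GOLGA7 had log2 ratios of 0.73, 0.05 and -0.43. GOLGA4, GOLGA8A and GOLGA8N were above the floor in the parental line only, with signals of 65.1, 63.2 and 49.9, so their bounds are small, and the GOLGA8 genes are near-identical copies whose signal cannot be assigned. GOLGA6A and the pseudogene GOLGA2P5 were not measured.

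Probe sets of the same gene give the only check on single values. The pooled SD of the log2 ratio within a gene was 0.50 over the 19 secretory genes with at least 2 probe sets above the floor in both lines, beside 0.46 over 1671 genes of the array. All probe sets had the same sign in 14 of the 19 (73.7%), beside 73.7% of the 1671. For 8 lower genes with other informative probe sets, all 14 of these were lower too and 11 passed 2-fold. GOLGA2 was the one higher gene with such probe sets, and SSR2, COPE and LMAN2 rest on 1 informative probe set each. The lower genes SRP54, SRP9, SRP14, SSR3, SAR1B, SEC24B, COPB2 and GOLGA5 likewise rest on 1 informative probe set each.

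**Figure D3:**
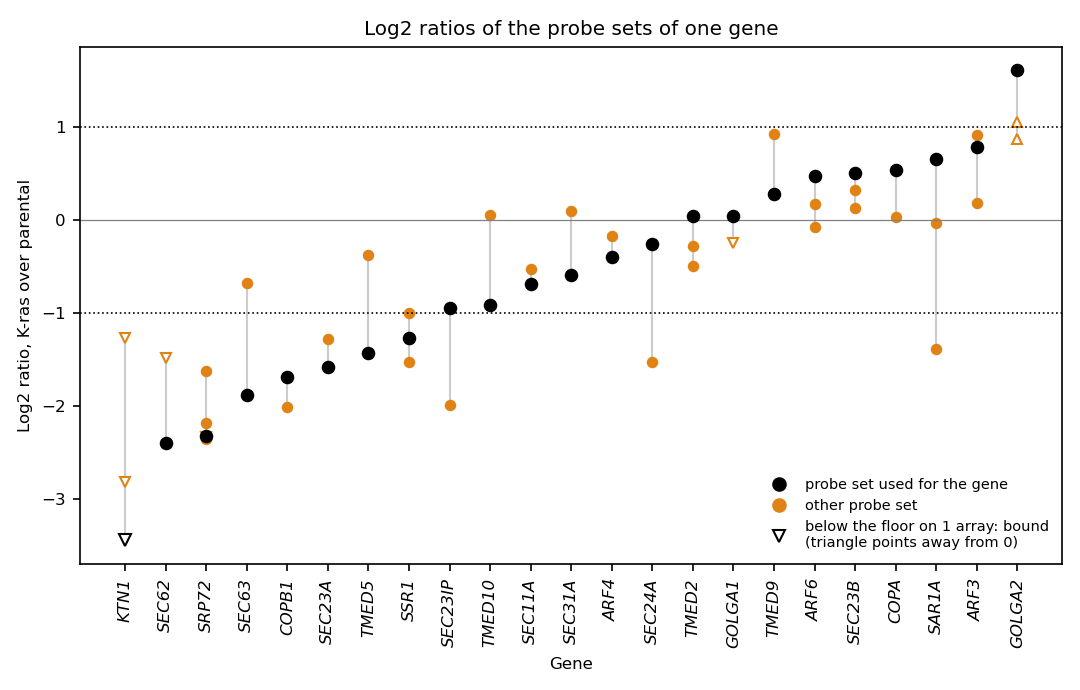
Log2 ratios (K-ras over parental) of all 58 informative probe sets of the 23 secretory genes with at least 2 of them; black marks the probe set used for the gene, orange the others, and open triangles bounds against the floor. All probe sets of KTN1, SRP72, COPB1 and SEC23A lie below -1, while those of SAR1A span 0.66 to -1.38.

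Promoter letters, which the choice by symbol did not use, were set beside the ratios as a description, with no test. Promoters are the 300 bases from 250 before to 50 after the first listed start of each gene in RefSeq (GRCh38.p14), which held 53 of the 60 genes. The letters TGACGTGG, known as an unfolded protein response element that XBP1 and ATF6 can bind, were searched on both strands. They occurred in 10 of 53 secretory promoters (18.9%), beside 0.795% of 27305 promoters in all and 1.004% of the 6376 promoters of measured genes. With every listed start, 12 of 53 promoters held them, beside 0.927% of all. A match is a run of letters and not a measured binding site. This was 1 of 12 motifs looked at after the values were known.

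To show where the letters lie, these are 80-base windows from the 7 promoters in which a match sits wholly before the start, on the gene's strand, with the match in capitals (CCACGTCA is the same motif read from the other strand). The first 4 belong to genes lower in the K-ras line, the last 3 to genes under 2-fold.
SEC62 (chr3:169966727-169966806, plus strand): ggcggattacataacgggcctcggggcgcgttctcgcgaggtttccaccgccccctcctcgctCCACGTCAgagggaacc
COPB1 (chr11:14499816-14499895, minus strand): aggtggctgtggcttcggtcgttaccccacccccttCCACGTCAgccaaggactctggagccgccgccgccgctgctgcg
GOLGA5 (chr14:92794090-92794169, plus strand): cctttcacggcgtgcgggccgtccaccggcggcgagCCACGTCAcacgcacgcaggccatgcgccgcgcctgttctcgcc
COPB2 (chr3:139389800-139389879, minus strand): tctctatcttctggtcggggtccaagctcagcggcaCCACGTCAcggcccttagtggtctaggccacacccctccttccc
SEC24A (chr5:134648570-134648649, plus strand): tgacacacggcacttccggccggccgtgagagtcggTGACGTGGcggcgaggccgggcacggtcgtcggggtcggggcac
GOLGA1 (chr9:124941223-124941302, minus strand): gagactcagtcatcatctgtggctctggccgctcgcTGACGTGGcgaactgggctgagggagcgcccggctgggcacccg
SRP19 (chr5:112861139-112861218, plus strand): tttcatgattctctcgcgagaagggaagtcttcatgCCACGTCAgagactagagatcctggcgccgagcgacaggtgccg

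In SEC62 and COPB1 the match begins 17 and 48 bases before the start, and in the others 112 to 183 bases before it. SEC23A holds a match across its start, and COPA and SEC16A hold one just after it. COPB2 holds a second match, 31 bases after its start. Of the 10 genes with the letters, 5 were at least 2-fold lower (SEC62, COPB1, GOLGA5, SEC23A and COPB2), none was higher, and the other 5 had log2 ratios of -0.26 to 0.54. Their median was -0.77, beside 0.09 for the 40 measured secretory genes without them, of which 11 were lower and 4 higher. The 64 measured genes of the array with the letters include these 10, so the groups are not independent. Of the 64, 12 were lower, among them the 5 just named, and 10 were higher, with a median of -0.02. Of the 6312 measured genes without the letters, the 40 secretory genes included, 938 were lower and 615 higher, with a median of 0.09.

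**Figure D4:**
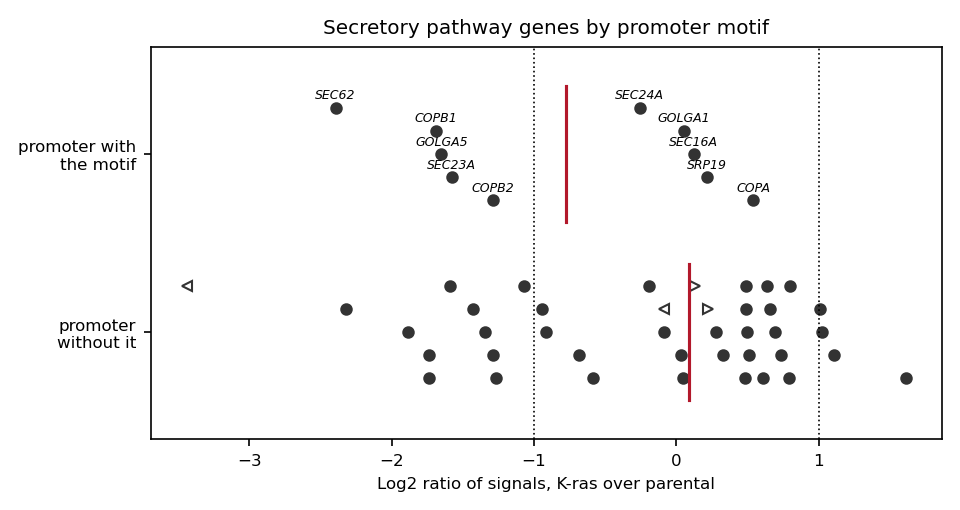
Log2 ratio (K-ras over parental) of measured secretory pathway genes with a listed promoter, split by whether the promoter holds the 8-letter motif; red bars are medians (-0.77 with the motif, 0.09 without), open triangles are bounds and dotted lines mark 2-fold. The 10 genes with the motif fall into 5 below -1 and 5 between -0.26 and 0.54.

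Other motifs gave a mixed picture. No secretory promoter held the ER stress elements ERSE or ERSE-II, the cyclic AMP element TGACGTCA or the amino acid response letters TGATGNAAN. These occurred in 0.0806%, 0.0549%, 1.98% and 3.67% of all promoters. The ETS letters CCGGAAGT were found in 12 of 53 secretory promoters (22.6%), beside 4.44% of all and 8.69% of those of measured genes. Of those 12 genes 3 were lower and none higher, where 16 of the 53 secretory genes were lower and 4 higher. Among all measured genes 14.4% were lower and 9.97% higher. The 12 are too few to show a pattern, and calls were not counted for ETS genes of the whole array. The 5 letters CCACG, which overlap the 8-letter motif, were in 83.0% of secretory promoters, 49.3% of those of measured genes and 37.9% of all. ACGTG, also part of the 8-letter motif, was in 56.6%, beside 27.4% of those of measured genes and 21.6% of all. TGACGTG was in 12 of 53 (22.6%), beside 2.57% of those of measured genes. The YY1 and NRF1 motifs were in 1 and 2 secretory promoters, and CCAAT in 39.6%, beside 35.7% of all.

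The signals of 4 transcription factors known to bind such elements were looked up after the values were seen, and their part in the ratios was not tested. XBP1 had 710 in the K-ras line and 275 in the parental line (2.58-fold higher). CREB3L2, an ER-anchored factor known to drive secretory pathway genes, had 412 in the K-ras line and 169 in the parental line (2.44-fold higher). ATF6 was at 85.2 in the K-ras line and 85.3 in the parental line, and CREB3L1 was not measured. The related gene CREB3 had 521 in the K-ras line and 275 in the parental line (log2 ratio 0.92), under 2-fold. RNA signals do not measure the activity of such factors.

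Genomic span, taken from GRCh38.p14, was another property set beside the ratios. The 4 higher secretory genes spanned a median of 20.0 kb and the 15 lower genes above the floor on both arrays 32.3 kb, beside 27.8 kb for the 31 under 2-fold. Over all genes the medians were 18.8 kb for higher, 39.5 kb for lower and 27.1 kb for the rest. Across the 50 secretory genes the log2 ratio and span had Spearman's rho = -0.34, and across 5994 genes of the array -0.22, values over genes of the same 2 arrays. The 15 lower genes ranged from 3.51 to 107.1 kb, the 31 under 2-fold from 3.29 to 113.3 kb and the 4 higher from 11.9 to 20.2 kb. After the trend with span was removed all 16 lower genes still passed 2-fold, and 3 of the 4 higher genes did, without SSR2. Under that alternative, chosen after seeing the data, 12.8% of all measured genes were lower. The part of span in the ratios was not tested.

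Other genes of the pathway, in 6 lists that do not overlap the 60, held 121 measured genes, of which 12 (9.92%) were higher and 15 (12.4%) lower, with a median log2 ratio of 0.16. Both shares were near those of all genes. In the list of the SRP receptor and ER insertion 1 of 18 measured genes (5.56%) was higher and 2 (11.1%) were lower, beside 9.97% and 14.4% of all measured genes. SRPRA, the receptor that the signal recognition particle docks on, had 1342 in the K-ras line and 599 in the parental line (2.24-fold higher), while the tail-anchor insertase gene GET1 had 182 and 589 (3.24-fold lower). EMC2, of the ER membrane complex, was at least 2.49-fold lower. In the oligosaccharyltransferase and N-glycan list 2 of 19 were lower and none higher, MAGT1 (2.05-fold, with -0.42 in another probe set) and the glucosyltransferase ALG6 (3.10-fold).

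Among COPII partners 2 of 14 (14.3%) were higher and 2 (14.3%) lower, beside 9.97% and 14.4% of all measured genes. PREB, the exchange factor that activates SAR1, had 747 in the K-ras line and 359 in the parental line (2.08-fold higher), and YIF1A was 2.10-fold higher. ERGIC2 was at least 4.89-fold lower and the collagen export receptor gene MIA3 2.09-fold lower. Of 15 COPI partners and ARF regulators 4 (26.7%) were higher and 3 (20%) lower, and the exchange factors for ARF parted. ARFGEF2, one of these, and the Golgi adaptor gene ACBD3 were 4.06-fold and 2.93-fold lower, though other probe sets gave 0.23 and -0.22, and ARFGEF1 was at least 3.20-fold lower. KDELR1, which returns escaped ER proteins, had 834 in the K-ras line and 341 in the parental line (2.45-fold higher). GBF1, the cis-Golgi exchange factor, named after its value was seen, had 286 and 124 (2.31-fold higher).

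In the list of SNAREs and tethers 3 of 33 (9.09%) were higher and 4 (12.1%) lower, beside 9.97% and 14.4% of all measured genes. The tether subunit TRAPPC8 was at least 3.85-fold lower and SCFD1, which regulates SNARE assembly, at least 3.41-fold lower. The SNARE YKT6 was 2.39-fold higher, with 0.87 in another probe set, and NSF, which takes SNARE complexes apart, 2.37-fold lower. At the trans-Golgi 2 of 22 (9.09%) were higher and 2 (9.09%) lower. Clathrin heavy chain CLTC had 1061 in the K-ras line and 2871 in the parental line (2.70-fold lower), and TGOLN2 was 2.68-fold lower with 0.19 and -0.67 in its other probe sets. IGF2R, the receptor for lysosomal enzymes, was 2.58-fold higher, and the sorting adaptor GGA1 2.05-fold higher in a probe set whose companions gave 1.06 and 1.01.

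In the list of ER folding and stress genes 8 of 26 measured genes (30.8%) were higher and 2 (7.69%) lower, beside 9.97% higher and 14.4% lower among all measured genes. Scaling on maintenance probe sets turned the shares of all genes to 14.4% higher and 11.1% lower. It raises the ratios of the folding list as well, but the list was not recounted under it. The 30.8% and 7.69% therefore stand only beside the 9.97% and 14.4%. The median log2 ratio was 0.55 in the folding list, beside 0.10 over all genes and -0.03 over the secretory genes, and 16 of the 26 were under 2-fold. ATF4 and DNAJB9 were among the higher ones, as were XBP1 and CREB3L2, both named after their values were seen. DNAJC10, an ER disulfide reductase, was at least 5.76-fold lower, and HSP90B1 3.33-fold lower on an uncertain probe set. The difference from the secretory genes could not be tested.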

How the data were processed

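The authors deposited 1 linear intensity per probe set and array, for 22283 probe sets, 68 of them controls. The software was not given in the sources used here. As the mean of each column without its lowest and highest 2% was 150.06, the deposited intensities were taken as already scaled, and both arrays were only brought to the same trimmed mean. Per the labels, RNA was extracted with phenol and chloroform, column-purified and labelled by the array maker's procedure. Gene names come from the array's annotation, where 19065 probe sets have 1 symbol, 1043 have several and 2107 are unnamed. All 60 symbols matched GRCh38.p14 by gene number. A further 12 probe sets that name such a gene together with others were left out.

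With 1 array per line no test was possible. Ratios are K-ras over parental. The floor was the higher array median of non-control probe sets. The genes, lists and motifs were chosen with earlier results of these data known. All secretory genes are named, with signals for those past 2-fold and their paralogues; of each other list, up to 4 genes with the largest ratio past 2-fold are named, and further ones are marked as chosen later. The procedure was run on simulated data with planted changes larger than 2-fold, in genes well above the floor. That run cannot check calls close to 2-fold or close to the floor, or any spread between cultures. Alternatives were other scalings, floors, thresholds and probe set choices, and removal of a trend with gene span. Computations ran in Python 3.11.15 with pandas 2.3.3 and numpy 2.4.6, curves came from statsmodels 0.14.6, correlations from scipy 1.17.1 and plots from matplotlib 3.10.9.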

Additional observations from a re-analysis of the deposited data

How the results depend on the processing

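The count of lower secretory genes, 16 of 56, was 15 to 18 under 11 of 12 alternative scalings, floors and probe set choices, and 16 once the trend with gene span was removed, an alternative chosen after seeing the data. Without _x_at and _s_at probe sets it was 10 of 37, since 7 of the 16 have no other measured probe set and SAR1A joins the rest. The lower translocon genes, 4, were 0 without those probe sets and 2 with the lowest probe set of a gene. The count of higher genes, 4, was 2 with median centring and 2 with the floor as a pseudocount. From 3-fold, 9 genes were lower and 1 higher. The median log2 ratio of -0.03 is too near 0 to have a direction: it was 0.17 with scaling on maintenance probe sets (all genes 0.26), 0.28 with a floor at the 70th percentile, and -0.14 with a floor at the 30th percentile, with no floor, and with the median over probe sets. These shifts follow from the procedure. Scaling on maintenance probe sets adds the same amount to the log2 ratio of every gene above the floor on both arrays. The floors change which genes enter the median, and the median over probe sets changes the ratios of genes with several. Of 253 ratios of the 20 genes past 2-fold under 13 alternatives, none changed sign and 15 moved by more than the SD between probe sets. These genes were picked for ratios past 2-fold on the same 2 arrays, so a change of sign was unlikely from the start. The lack of one is therefore no check on the ratios. No paired analysis was possible because each line has 1 array.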
